A study of Homo sapiens with 12 samples.

Results

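The genes described here are the E2F transcription factors E2F1 to E2F8 and the pocket proteins RB1 and RBL1, 10 genes of the 57820 gene rows in the count table. They were chosen by symbol, 1 row each, and all 10 passed the filter on low counts. Polyadenylated RNA was sequenced from 3 established human tumour lines, A549 (lung), SKOV3 (ovary) and MDA-MB-231 (breast). Cells carried a control lentiviral vector (pCDH-CMV) or a lentiviral vector for full-length human MYC (pCDH-puro-cMyc), with puromycin used to select the MYC cells. Each was kept in DMSO or in tipifarnib for 48 h. Differences with MYC compare cells with these vectors, so MYC cannot be told apart from any effect of vector or selection. Tipifarnib inhibits farnesyltransferase, the enzyme that adds a farnesyl lipid to RAS, lamins and other proteins. The dose was 10 µM for A549 and 20 µM for SKOV3 and MDA-MB-231, so dose and line cannot be told apart where A549 differs from the other lines. The 12 libraries thus form 4 groups (control in DMSO, control in tipifarnib, MYC in DMSO, MYC in tipifarnib), each with 1 library per line. The study asked which genes go with a change in tipifarnib sensitivity when MYC is overexpressed. The labels do not say whether transduced cells were pools or clones, and give each line 1 culture per group. The p-values therefore rest on the spread over lines and pairs, which may in part be technical.

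E2F proteins bind promoters of genes for DNA replication and cell cycle progress, most of them as dimers with a DP partner. In quiescent and early G1 cells the pocket proteins (RB1, RBL1 and RBL2) hold E2F at those promoters in a repressive state. Cyclin D and cyclin E kinases phosphorylate the pocket proteins and release E2F, which commits the cell to S phase. By textbook role E2F1, E2F2 and E2F3 are activators, E2F4 and E2F5 work mainly as repressors with RBL1 and RBL2, E2F6 represses without pocket proteins, and E2F7 and E2F8 are atypical repressors that bind DNA without DP. Several family genes are themselves E2F targets, which closes feedback loops, and RB1 loss or CDK4 activity drives many tumours.

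Promoter sequence is shown for 5 members, E2F1, E2F2, E2F3 and RBL1 because their starts hold E2F words and E2F7 because its window holds none and its drug response differed in sign between lines. Sequences are from RefSeq, build GRCh38.p14, which holds 8 of the 10 members in 9 windows that run from 250 bases before to 50 bases after a transcription start. The search was for the words TTTCCCGC, TTTGGCGC, TTTCGCGC and TTTGCCGC on both strands, and 3.31% of the 35116 promoter windows in the table hold at least 1 of them. E2F1 holds 2, E2F2 holds 1, RBL1 holds 2 and the upstream one of the windows for E2F3 holds 1. The windows of E2F4, E2F6 and E2F7 and the downstream E2F3 window hold none. The RB1 window belongs to a start inside the gene, 172699 bases from its first base, and was not read further. E2F5 and E2F8 are not in the table. Below are the 250 bases before the start, 5′ to 3′ on the gene's strand, with E2F words in capitals. The intervals are chr20:33686386-33686635 (minus strand) for E2F1, chr1:23531234-23531483 (minus) for E2F2, chr6:20401629-20401878 (plus) for E2F3, chr20:37095998-37096247 (minus) for RBL1 and chr12:77065570-77065819 (minus) for E2F7.
E2F1: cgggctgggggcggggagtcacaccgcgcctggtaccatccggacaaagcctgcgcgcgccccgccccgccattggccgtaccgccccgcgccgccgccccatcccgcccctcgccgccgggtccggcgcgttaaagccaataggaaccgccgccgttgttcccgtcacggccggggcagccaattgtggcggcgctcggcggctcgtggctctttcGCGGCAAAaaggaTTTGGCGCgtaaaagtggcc
E2F2: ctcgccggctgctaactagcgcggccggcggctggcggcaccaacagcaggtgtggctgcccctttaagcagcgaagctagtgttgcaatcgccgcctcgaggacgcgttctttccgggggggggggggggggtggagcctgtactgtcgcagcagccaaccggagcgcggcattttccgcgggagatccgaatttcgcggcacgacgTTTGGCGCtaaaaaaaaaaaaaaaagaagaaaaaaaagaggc
E2F3: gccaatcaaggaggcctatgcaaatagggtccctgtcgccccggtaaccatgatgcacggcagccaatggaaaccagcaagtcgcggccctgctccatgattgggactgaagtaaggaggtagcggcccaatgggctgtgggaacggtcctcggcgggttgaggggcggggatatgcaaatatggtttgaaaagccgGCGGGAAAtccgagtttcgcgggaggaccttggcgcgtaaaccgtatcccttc
RBL1: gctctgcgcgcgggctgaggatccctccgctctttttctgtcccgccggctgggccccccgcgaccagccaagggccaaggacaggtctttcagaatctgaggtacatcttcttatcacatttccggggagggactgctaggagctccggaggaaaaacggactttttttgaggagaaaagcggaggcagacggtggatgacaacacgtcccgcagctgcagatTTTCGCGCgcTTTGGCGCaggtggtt
E2F7: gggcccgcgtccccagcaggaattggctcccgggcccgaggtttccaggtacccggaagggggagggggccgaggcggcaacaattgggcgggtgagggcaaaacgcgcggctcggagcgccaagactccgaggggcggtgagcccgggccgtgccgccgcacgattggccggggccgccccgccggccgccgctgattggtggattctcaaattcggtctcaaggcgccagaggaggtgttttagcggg
The E2F words begin 33 and 20 bases before the start of E2F1, 42 before that of E2F2, 53 before that of E2F3, and 26 and 16 before that of RBL1. The first word of E2F1 and that of E2F3 lie on the opposite strand and so appear as reverse complements. CCAAT, read on both strands, occurs 4 times in the E2F7 window, 4 times in the upstream E2F3 window and 3 times in that of E2F1. It is found in 34.6% of all windows. The MYC E-box CACGTG (7.26% of windows) was found only in the downstream E2F3 window among the 9, and the cell cycle element TTTGAA (15.2%) only in the upstream E2F3 window. These are matches of letters, and binding was not measured.

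Gene counts per library ran from 20481363 to 26962994, and no library stood apart in depth. Levels are CPM, a gene's counts scaled to a common library size (TMM). MYC was higher in all 6 MYC libraries than in the control library of the same line and treatment, by 1.82 to 3.35 on the log2 scale. MYC RNA also moved with drug. In control A549, SKOV3 and MDA-MB-231 it was at 1.37, 2.06 and 2.36 times the DMSO level, and in MYC cells at 0.555, 1.24 and 2.25 times. In A549 the MYC cells thus held 8.7 times the control level in DMSO and 3.53 times in drug. Over all lines the log2 drug change of MYC was 0.55 ± 0.23 (SE) and did not pass. ALDH1A1 was at 7911 to 9378 CPM in A549 and at most 9.50 elsewhere, and PAX8 was at 173 to 265 CPM in SKOV3 and at most 8.46 elsewhere. ESR1 was at most 0.27 CPM in MDA-MB-231. Some other line markers did not separate the lines. AKR1C1, listed for A549, was at 171 to 329.9 CPM there and at 259 to 562 in SKOV3. VIM and CD44, listed for MDA-MB-231, were at 887 to 1408 and 410.1 to 493 CPM there and reached 1021 and 562 in SKOV3. The ovarian marker MUC16 was nearly absent from SKOV3, at most 0.651 CPM. Of markers for other cells, PTPRC and CD3E did not pass the filter on low counts, with at most 12 counts in a library, and CD14, CDH5 and VWF stayed at or under 8.93, 2.76 and 1.18 CPM.

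Every member was detected in every library, from 65 counts (E2F2) to 4279 (E2F7). Scaled to exon length, E2F1 and E2F4 were the most abundant members, with medians over the 12 libraries of 24.8 and 23.3 CPM per kb. RB1 followed at 13.7, E2F3 at 10.7, E2F7 at 9.89, RBL1 at 6.42 and E2F6 at 5.33 CPM per kb. E2F2, E2F8 and E2F5 were the scarcest at 2.30, 2.21 and 1.998 CPM per kb. Ranges over libraries overlapped between all neighbours in this order, for example 12.3 to 41.6 CPM per kb for E2F1 and 16.2 to 38.9 for E2F4. By median the most abundant members were the activator E2F1 and the repressor E2F4, and of the atypical repressors E2F7 was above E2F8. RBL2, the pocket protein outside the 10, had a median of 11.1 CPM per kb.

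The lines differed in the level of most members, as they did in the level of most genes tested. Of all genes tested, 34.7% were higher and 34.1% lower in A549 than in SKOV3, 35.6% and 32.3% than in MDA-MB-231, and 37.3% and 34.1% were higher and lower in SKOV3 than in MDA-MB-231. Against that background 8, 9 and 7 of the 10 members differed. E2F7 had the largest gap, with a mean of 114 ± 29.5 CPM (SD, n = 4 libraries) in MDA-MB-231, 78.6 ± 56.9 in SKOV3 and 28.8 ± 7.62 in A549. Its 4 A549 libraries lay below all 4 MDA-MB-231 libraries, and those of SKOV3 overlapped both. In DMSO E2F7 was at 35.8 (control) and 26.4 CPM (MYC) in SKOV3, no higher than the 36.4 and 34.1 of A549. The higher SKOV3 mean thus rests on its drug libraries, at 108 and 144 CPM. E2F8 was at 23.7 ± 17.4 CPM in MDA-MB-231, 9.77 ± 7.57 in SKOV3 and 8.10 ± 5.11 in A549. The difference of E2F8 between A549 and SKOV3 did not pass (log2 difference -0.06 ± 0.14, adjusted p = 0.723). E2F2, an activator, ran the other way, at 20.04 ± 9.71 CPM in A549 against 9.30 ± 7.77 in MDA-MB-231 and 8.86 ± 4.94 in SKOV3.

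RB1 was lowest in A549, at 52.3 ± 7.83 CPM (SD, n = 4), against 95.1 ± 21.9 in MDA-MB-231 and 116 ± 26.0 in SKOV3. No A549 library reached the level of any library of the other lines. RBL1 was highest in MDA-MB-231, at 63.6 ± 31.0 CPM, against 38.3 ± 13.2 in A549 and 33.1 ± 6.04 in SKOV3. E2F6 was highest in A549, at 32.8 ± 1.98 CPM, against 21.2 ± 3.18 in MDA-MB-231 and 16.4 ± 1.73 in SKOV3, and the A549 libraries did not overlap the others. E2F5 was lowest in SKOV3, at 7.18 ± 1.88 CPM, and at 14.0 ± 4.92 in A549 and 15.0 ± 3.28 in MDA-MB-231, which were not told apart (adjusted p = 0.338). E2F1, E2F3 and E2F4 varied less, with mean levels from 49.9 to 70.9, 46.4 to 65.9 and 67.0 to 105 CPM. A line is represented by 4 libraries in 4 states. The means, SDs and tests of level between lines therefore include the drug and vector effects described next, with a lower drug dose in A549.

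**Figure D1:**
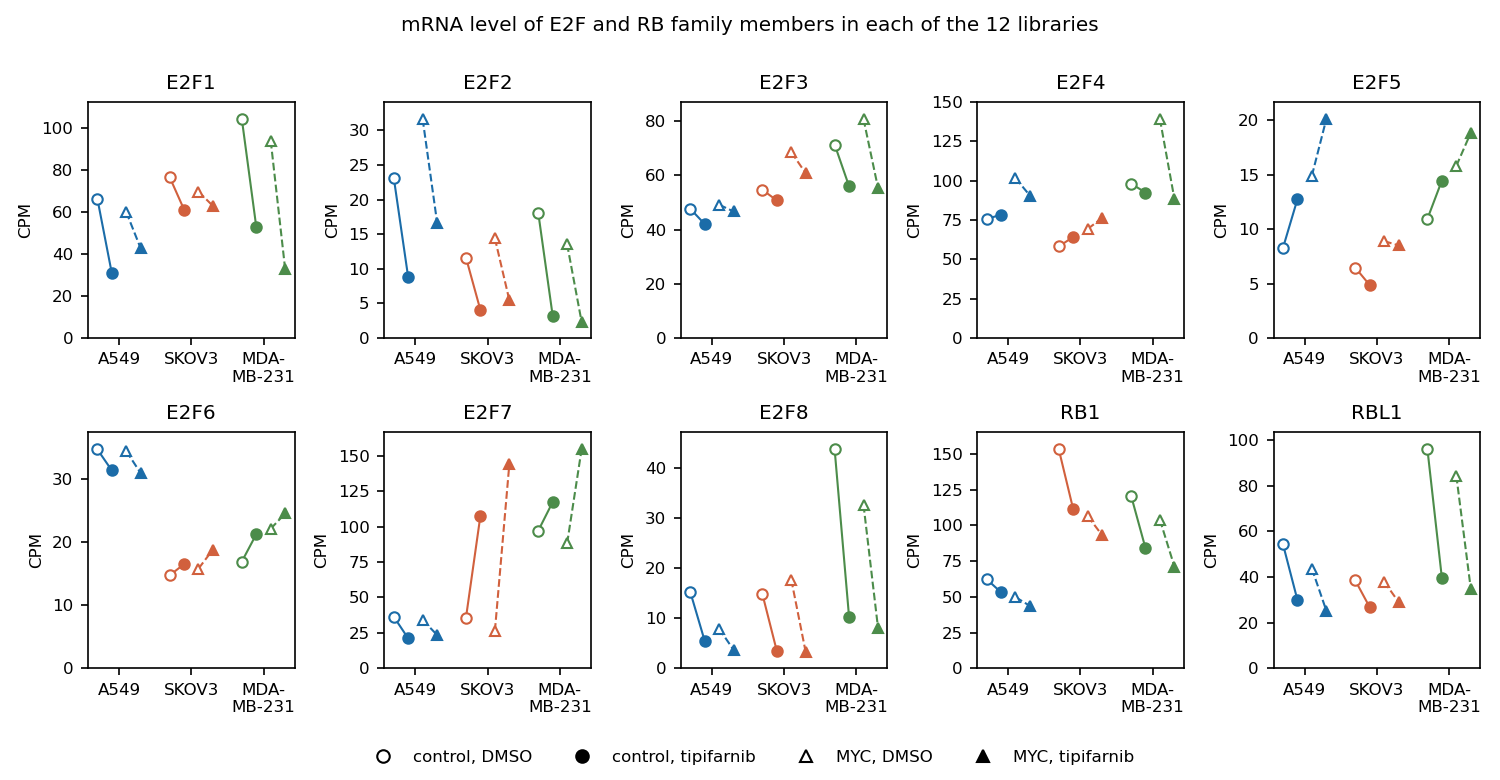
mRNA level in CPM (linear axis from 0) of each of the 10 members in the 12 libraries, with control cells as circles on solid lines, MYC cells as triangles on dashed lines, and each line joining the DMSO library (open) to its tipifarnib library (filled). E2F8 and E2F2 drop in all 6 pairs, while E2F7 drops in A549, from 36.4 to 21.1 CPM in control cells, and climbs in SKOV3, from 35.8 to 108.

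With tipifarnib 5 members were lower and no member rose over all lines. E2F8, E2F2, RBL1, E2F1 and RB1 fell (adjusted p under 0.05 in the edgeR quasi-likelihood test over all genes), so 5 of 10 members fell where 6.63% of all genes tested did. Of all genes 4.66% rose. The members' median log2 fold change was -0.30 and that of all genes 0.00069. E2F1, E2F2, E2F3, E2F8, RB1 and RBL1 were lower with drug in 6 of 6 pairs, a count not taken over all genes. These counts rest on 6 pairs with line as the block. With the 3 lines as the unit of replication, or with line left out of the model, no member and no other gene passed (2184 genes in limma and 968 in edgeR at an unadjusted p under 0.05). Without MDA-MB-231, SKOV3 or A549 the number of members that fell was 1 (E2F2), 4 and 3. In bulk RNA, fewer cells in a cell cycle phase and less RNA per cell cannot be told apart.

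Among the activators E2F2 moved most. In A549 it went from 23.1 to 8.73 CPM in control cells and from 31.6 to 16.7 in MYC cells. In MDA-MB-231 it went from 18.1 to 3.20 and from 13.5 to 2.35, and in SKOV3 from 11.6 to 4.01 and from 14.4 to 5.46. Drug and DMSO libraries did not overlap within any line, and the 2 drugged MDA-MB-231 libraries were the lowest of all. The log2 fold change over all lines was -1.68 ± 0.27 (SE, adjusted p = 0.00481), and E2F2 was the only member that still passed when any single line was left out (-1.97 to -1.29).

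E2F1, which drives S phase entry and can also trigger apoptosis, went from 66.3 to 30.8 CPM in control A549 and from 59.95 to 42.6 in MYC A549. In SKOV3 it went from 76.6 to 61.2 and from 69.7 to 62.8 CPM. In MDA-MB-231 it went from 104 to 52.8 in control cells and from 93.9 to 32.7 in MYC cells. As shares of the DMSO level, control A549 kept 46.5%, control MDA-MB-231 50.7% and MYC MDA-MB-231 34.8%. SKOV3 thus had the smallest E2F1 shift in both genotypes. The log2 fold change was -0.74 ± 0.18 (adjusted p = 0.0274), and the call was lost without A549 (adjusted p = 0.115) and without MDA-MB-231 (-0.50, adjusted p = 0.199). E2F3, the third activator, had a log2 fold change of -0.24 ± 0.09 (adjusted p = 0.109). It was lower in 6 of 6 pairs, from 80.7 to 55.4 CPM in MYC MDA-MB-231 at the wide end and from 49.2 to 46.7 in MYC A549 at the narrow end, and within lines it passed in MDA-MB-231 (-0.45 ± 0.11, adjusted p = 0.0198), with -0.13 ± 0.11 in A549 and -0.14 ± 0.11 in SKOV3.

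The classical repressors did not pass over all lines. E2F4 had a log2 fold change of -0.09 ± 0.10 (adjusted p = 0.584) and lay between 58.2 and 139 CPM in all libraries, and its sign turned without MDA-MB-231 (0.06). E2F5 was at 0.21 ± 0.16 (adjusted p = 0.434) and E2F6 at 0.10 ± 0.11 (adjusted p = 0.621). In DMSO E2F5 was at 8.27 CPM in control A549 against 12.7 with drug, while in control SKOV3 it was at 6.47 against 4.86. The E2F5 exons share 16.35% of their bases with C8orf59 on the opposite strand, and whether counting used strand is not given in the sources used here, so E2F5 values are uncertain.

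The atypical repressors E2F7 and E2F8 act on overlapping targets and can dimerise. Both were lower with drug in the A549 pairs, while in the SKOV3 and MDA-MB-231 pairs E2F8 was lower and E2F7 higher. E2F8 had a log2 fold change of -1.90 ± 0.21 over all lines (adjusted p = 0.00117), beside -1.68 ± 0.27 for E2F2, and the order of the pair turned without SKOV3 and within MDA-MB-231 (-2.05 for E2F8, -2.51 for E2F2). In A549 it went from 15.3 to 5.50 CPM in control cells and from 7.92 to 3.67 in MYC cells. In MDA-MB-231 it went from 43.7 to 10.2 and from 32.6 to 8.13, and in SKOV3 from 14.8 to 3.42 and from 17.7 to 3.18. Drugged cells kept 18.0% to 46.4% of the DMSO level, the larger shares being the A549 pairs. Without MDA-MB-231 the E2F8 call was lost (-1.80, adjusted p = 0.0745).

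E2F7 went from 36.4 to 21.1 CPM in control A549 and from 34.1 to 23.5 in MYC A549. In SKOV3 it went from 35.8 to 108 CPM in control cells and from 26.4 to 144 in MYC cells, 3.01 and 5.45 times the DMSO level. MDA-MB-231 started high, at 97.1 and 88.2 CPM, and reached 117 and 155. So both A549 pairs went down and the other 4 pairs up, and SKOV3 in drug reached the range of MDA-MB-231. Over all lines the log2 fold change was 0.63 ± 0.37 (adjusted p = 0.3), a mean of unlike responses whose sign turned without SKOV3 (-0.04).

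RBL1 (p107), the pocket protein whose own gene is an E2F target, went from 54.3 to 29.9 CPM in control A549 and from 43.7 to 25.3 in MYC A549. In MDA-MB-231 it went from 95.9 to 39.5 and from 84.3 to 34.8 CPM, and in SKOV3 from 38.5 to 26.8 and from 37.95 to 29.04. Its log2 fold change was -0.85 ± 0.14 (adjusted p = 0.00483), with no overlap of drug and DMSO libraries within a line, and the call was lost without MDA-MB-231 (-0.63, adjusted p = 0.111). RB1, the retinoblastoma protein, changed less. Control cells went from 121 to 84.1 CPM in MDA-MB-231, from 62.4 to 53.2 in A549 and from 153 to 111 in SKOV3. MYC cells went from 104 to 71.3, from 49.8 to 43.7 and from 107 to 93.2 CPM in the same order. The log2 fold change was -0.36 ± 0.08 (adjusted p = 0.0226) with 6 of 6 pairs lower, and it was lost whichever line was left out (adjusted p = 0.0765 to 0.261). RBL2, which holds E2F4 in resting cells, was at 0.29 ± 0.16 (adjusted p = 0.295).

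Taken line by line, 4 members fell in A549 and none rose (background 4.47% fell, 3.56% rose). In SKOV3 3 fell and 1 rose (7.48% and 6.57%), and in MDA-MB-231 6 fell and none rose (12.1% and 10.6%). E2F2, E2F8 and RBL1 fell in each line, but the RBL1 call in SKOV3 (adjusted p = 0.0279) was lost with no low count filter (0.063) and without MDA-MB-231 (0.0679). E2F1 fell in A549 (-0.80 ± 0.17) and MDA-MB-231 (-1.25 ± 0.17) and was at -0.24 ± 0.17 in SKOV3 (adjusted p = 0.404). RB1 fell in MDA-MB-231 (-0.53 ± 0.11) and was at -0.33 ± 0.11 in SKOV3 (adjusted p = 0.0815) and -0.21 ± 0.11 in A549 (adjusted p = 0.288). The SKOV3 gene that rose was E2F7 (2.02 ± 0.21, adjusted p = 0.000554). In MDA-MB-231 RBL2 rose (0.84 ± 0.14, adjusted p = 0.00265), from 39.1 to 59.4 CPM in control cells and from 36.8 to 77.9 in MYC cells. Within that line RB1 and RBL1 thus fell and the third pocket protein rose, and the RBL2 response differed between lines (adjusted p = 0.0262). The RBL2 exons share 9.85% of their bases with AC007342.6 and 8.33% with AKTIP on the opposite strand. As for E2F5, the strand setting of the counting is not given, so RBL2 values are uncertain too.

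**Figure D2:**
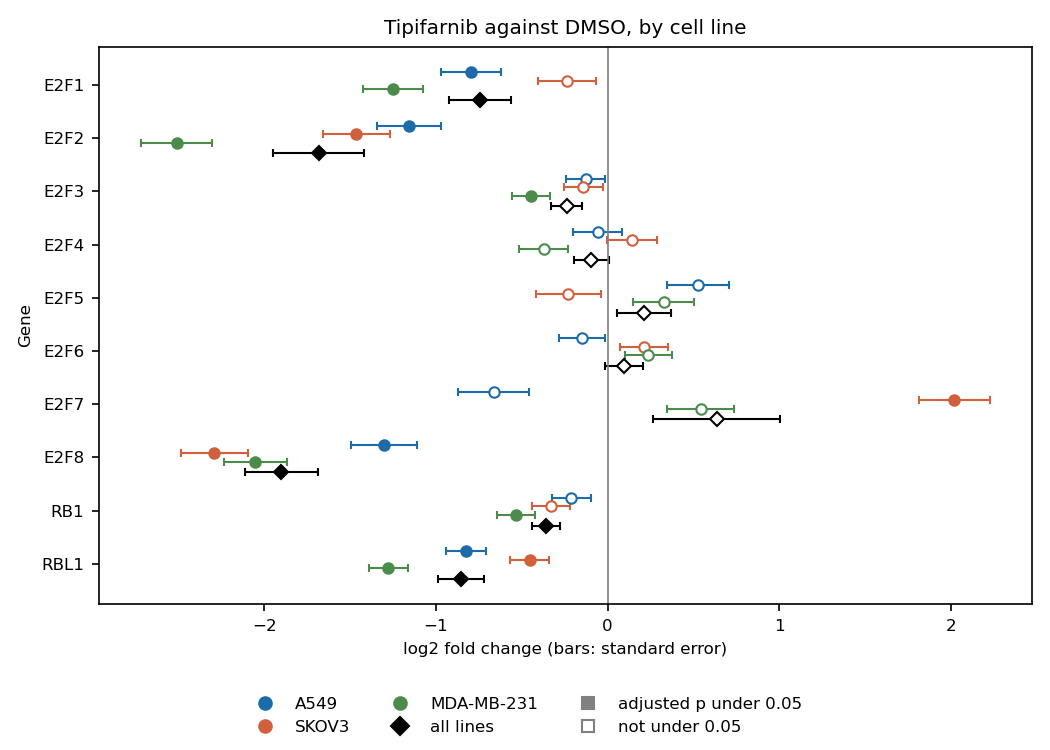
Log2 fold change of each member, tipifarnib against DMSO, within each line (circles) and over all lines (black diamonds), with bars of 1 standard error and filled symbols where the adjusted p was under 0.05. E2F2, E2F8 and RBL1 are filled and left of 0 in every line, and E2F7 ranges from -0.66 in A549 to 2.02 in SKOV3.

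A test of the difference itself, between the 3 lines' drug responses, passed for E2F7, E2F2 and RBL1, 3 of 10 members where 7.69% of all genes passed. For E2F7 the log2 fold changes were 2.02 ± 0.21 in SKOV3, 0.54 ± 0.20 in MDA-MB-231 (adjusted p = 0.0744) and -0.66 ± 0.20 in A549 (adjusted p = 0.0785), and the adjusted p of the difference was 0.0051. The A549 and MDA-MB-231 changes of E2F7 each passed in 2 of 6 alternatives, with no low count filter (0.000507 and 0.00161) and without SKOV3 (0.0348 and 0.0278). The lines given the same dose, SKOV3 and MDA-MB-231, also differed for E2F7 with A549 left out, by -1.49 ± 0.28 for MDA-MB-231 less SKOV3 (adjusted p = 0.0139). E2F2 responded most in MDA-MB-231 (-2.51 ± 0.21) and less in SKOV3 (-1.46 ± 0.19) and A549 (-1.16 ± 0.18), with an adjusted p of 0.0348. RBL1 was at -1.28 ± 0.11 in MDA-MB-231, -0.83 ± 0.12 in A549 and -0.46 ± 0.11 in SKOV3, also at 0.0348. The E2F2 and RBL1 differences did not pass without SKOV3 (0.0504 and 0.223) or without MDA-MB-231 (0.603 and 0.293). For E2F1 the adjusted p of the difference was 0.0665, and between SKOV3 and MDA-MB-231 alone it passed (-1.03 ± 0.20, 0.0146).

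Few members passed with MYC, and their share was near that of all genes. Over both treatments 1 member rose and none fell, where 4.5% of all genes rose and 2.84% fell, and the members' median log2 fold change was 0.12. The member was E2F5 (0.60 ± 0.16, adjusted p = 0.0489), higher in 6 of 6 pairs. It went from 8.27 to 14.9 CPM in A549 in DMSO and from 12.7 to 20.1 in tipifarnib. In MDA-MB-231 it went from 10.95 to 15.8 and from 14.5 to 18.9 CPM, and in SKOV3 from 6.47 to 8.90 and from 4.86 to 8.50. MYC cells were above control cells in each line and treatment, but the call was lost without any one line (adjusted p = 0.0974 to 0.29) and it passed in 2 of 9 alternatives.

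RB1 was lower in MYC cells in 6 of 6 pairs, at -0.31 ± 0.08, with an adjusted p of 0.05003. In DMSO it went from 121 to 104 CPM in MDA-MB-231, from 62.4 to 49.8 in A549 and from 153 to 107 in SKOV3, and it passed in DESeq2 (0.00646), in limma-voom (0.0433) and in edgeR with DESeq2 size factors (0.048) among alternatives whose adjusted p ran from 0.00646 to 1. With those size factors E2F5 did not pass (0.0533), so the 1 member called for MYC was RB1 there. The drug and MYC differences of RB1 thus have the same sign, and the level was lowest in all 3 lines in MYC cells with tipifarnib. E2F4 was at 0.27 ± 0.10 (adjusted p = 0.127), and E2F1, a gene often named as a MYC target, was at -0.09 ± 0.18 (adjusted p = 0.819).

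Within A549, E2F2 and E2F5 rose (0.68 ± 0.18 and 0.75 ± 0.18) and E2F8 fell (-0.79 ± 0.19) with MYC, where 9.94% of genes rose and 7.8% fell. E2F8 was at 15.3 CPM in control and 7.92 in MYC A549 in DMSO, and at 5.50 and 3.67 in tipifarnib. In edgeR no member passed in SKOV3 (4.58% of genes rose, 4.5% fell) or MDA-MB-231 (0.813% rose, 0.831% fell). At an unadjusted p under 0.05 were E2F3, E2F5 and RB1 in SKOV3 and E2F1 and E2F5 in MDA-MB-231, and RB1 passed in SKOV3 in DESeq2 (-0.41 ± 0.13, adjusted p = 0.0222). Without the MDA-MB-231 libraries, which share the error estimate, the A549 calls of E2F2 and E2F8 were lost (0.0557 and 0.0572). The test of MYC effects that differ between lines passed for 0 members and 3.07% of genes. E2F2 and E2F8 had an unadjusted p under 0.05. E2F2 came nearest (adjusted p = 0.115), at 0.37 ± 0.19 in SKOV3 and -0.43 ± 0.20 in MDA-MB-231.

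**Figure D3:**
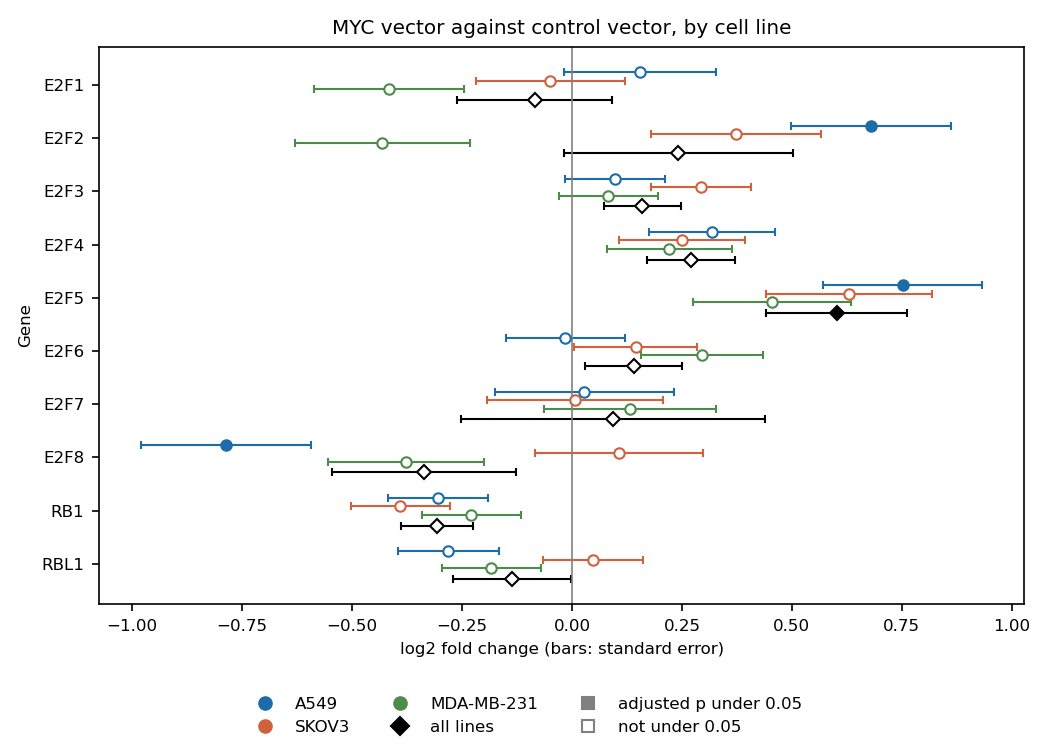
Log2 fold change of each member, MYC against control vector, within each line (circles) and over all lines (black diamonds), with bars of 1 standard error and filled symbols where the adjusted p was under 0.05. Most symbols are open, E2F3, E2F4, E2F5 and E2F7 lie right of 0 and RB1 left of 0 in every line. E2F7 is near 0 in SKOV3 (0.0063).

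The drug response was not shown to differ between MYC and control cells for any member. The interaction of MYC and tipifarnib passed for 0 members and 0 of 17096 genes (0% higher, 0% lower), with 125 genes at an unadjusted p under 0.05 in edgeR and 118 in DESeq2. Member interaction terms ranged from -0.26 ± 0.20 (E2F4) to 0.53 ± 0.69 (E2F7). Their standard errors, 0.16 (RB1) to 0.69, leave room for sizeable differences. Of the 53 classical E2F targets described next, 52 had a positive term, where 8798 of 17096 genes did. A positive term means a less negative drug response in MYC cells. The list median was 0.13, against 0.0087 for all genes. None of these terms passed, and the genes share the same libraries, so they are not separate results.

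Genes around the family were read from lists of the pathway. Under tipifarnib 51 of 53 classical E2F targets of S phase entry fell and none rose, where 6.63% of all genes fell. Their median log2 fold change was -0.86. ATAD2 (-1.21 ± 0.10), cyclin A2 (CCNA2, -0.86 ± 0.07), the ribonucleotide reductase subunit RRM1 (-0.93 ± 0.08) and thymidine kinase TK1 (-0.999 ± 0.096) had the smallest p. In control cells CCNA2 went from 174 to 84.6 CPM in MDA-MB-231, from 104 to 52.2 in A549 and from 105 to 56.4 in SKOV3. The pair that did not pass, named after their values were seen, were MYB (-0.58 ± 0.38) and cyclin E1 (CCNE1, -0.05 ± 0.15). MYB was scarce, from 0 to 5.53 CPM. Within lines 45 (A549), 38 (SKOV3) and 51 (MDA-MB-231) of the 53 fell and none rose. Of all genes 4.47%, 7.48% and 12.1% fell in the same lines. Between lines 11 of 53 differed, where 7.69% of all genes did. Of the E2F1 targets of apoptosis 1 of 14 rose (BBC3, which encodes PUMA, 1.74 ± 0.16) and 1 fell (CASP8AP2, -0.56 ± 0.11), with a median of -0.02. Over all lines both counts are near the shares of all genes that rose and fell (4.66% and 6.63%). Within lines 3 (A549), 2 (SKOV3) and 3 (MDA-MB-231) of the 14 rose, where 3.56%, 6.57% and 10.6% of all genes did. In the same lines 1, 1 and 3 fell. The list medians were 0.28, -0.12 and 0.02, and 1 of 14 responses differed between lines. HRK (2.42 ± 0.74) and TP53INP1 (0.92 ± 0.29) had the next smallest p and did not pass (0.0614 and 0.0712). HRK was scarce, from 0.17 to 7.90 and from 0.75 to 8.37 CPM in SKOV3 (control, then MYC cells). It was at most 2.57 CPM in A549 and 0.27 in MDA-MB-231. TP53INP1 was higher with drug in the A549 and MDA-MB-231 pairs and lower in SKOV3, from 29.1 to 25.95 and from 17.0 to 15.2 CPM.

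Upstream of the pocket proteins, 4 of 9 G1 cyclins, their kinases and the phosphatase CDC25A fell over all lines and none rose. They were CDK2 (-0.62 ± 0.09), CDC25A (-0.93 ± 0.18), cyclin E2 (CCNE2, -1.38 ± 0.31) and CDK4 (-0.41 ± 0.11). Of all genes 6.63% fell and 4.66% rose. Within lines 2 (A549), 2 (SKOV3) and 6 (MDA-MB-231) of the 9 fell (all genes 4.47%, 7.48% and 12.1%). In SKOV3 1 rose (all genes 6.57%). Between lines 4 of 9 differed, where 7.69% of all genes did. Cyclin D1 (CCND1) went from 166 to 224 and from 56.8 to 200 CPM in SKOV3 (control, then MYC cells). In MDA-MB-231 it went from 617 to 373 and from 513 to 256, and in A549 from 392 to 390.5 and from 389 to 413. Of the CDK inhibitors, CDKN1A (p21) rose (2.13 ± 0.25) and CDKN2C (p18) fell (-1.55 ± 0.19), of 5 tested. In control cells CDKN1A went from 33.4 to 96.4 CPM in MDA-MB-231, from 64.2 to 278 in A549 and from 5.95 to 22.9 in SKOV3. CDKN1B and CDKN1C did not pass (-0.23 ± 0.14 and 0.65 ± 0.45). CDKN2A (p16) and CDKN2B (p15) had at most 8 and 2 counts in a library and were not tested.

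Of the DP partners, TFDP1 fell (-0.57 ± 0.13), TFDP2 did not pass (-0.18 ± 0.11) and TFDP3 had 0 counts. In the list of RBL2 and the MuvB core with its partners, 4 of 8 fell, MYBL2 (-1.06 ± 0.12), FOXM1 (-0.91 ± 0.10), RBBP4 (-0.54 ± 0.12) and LIN9 (-0.47 ± 0.13). MYBL2 and FOXM1 turn MuvB from a repressor into an activator of mitotic genes. Among corepressors that RB1 recruits, 5 of 11 fell, led by the DNA methyltransferase DNMT1 (-0.86 ± 0.10), SUV39H1 (-0.79 ± 0.13), SIN3A (-0.39 ± 0.08) and SMARCA4 (-0.35 ± 0.09). Of the partners of the E2F6 complex 4 of 12 fell, with a list median of -0.17 beside -0.23 for the corepressors (CBX3 -0.50 ± 0.09, EHMT1 -0.33 ± 0.07, HDAC1 -0.34 ± 0.09, EHMT2 -0.34 ± 0.10). Of the genes for turnover and modification of E2F, 6 of 11 fell, among them FBXO5 (-1.03 ± 0.11), CDC20 (-0.84 ± 0.11), the ligase subunit CCNF (-0.93 ± 0.12) and the demethylase KDM1A (-0.40 ± 0.08). Some genes stand in more than 1 list, and these counts are descriptions beside the 6.63% of all genes that fell.

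**Figure D4:**
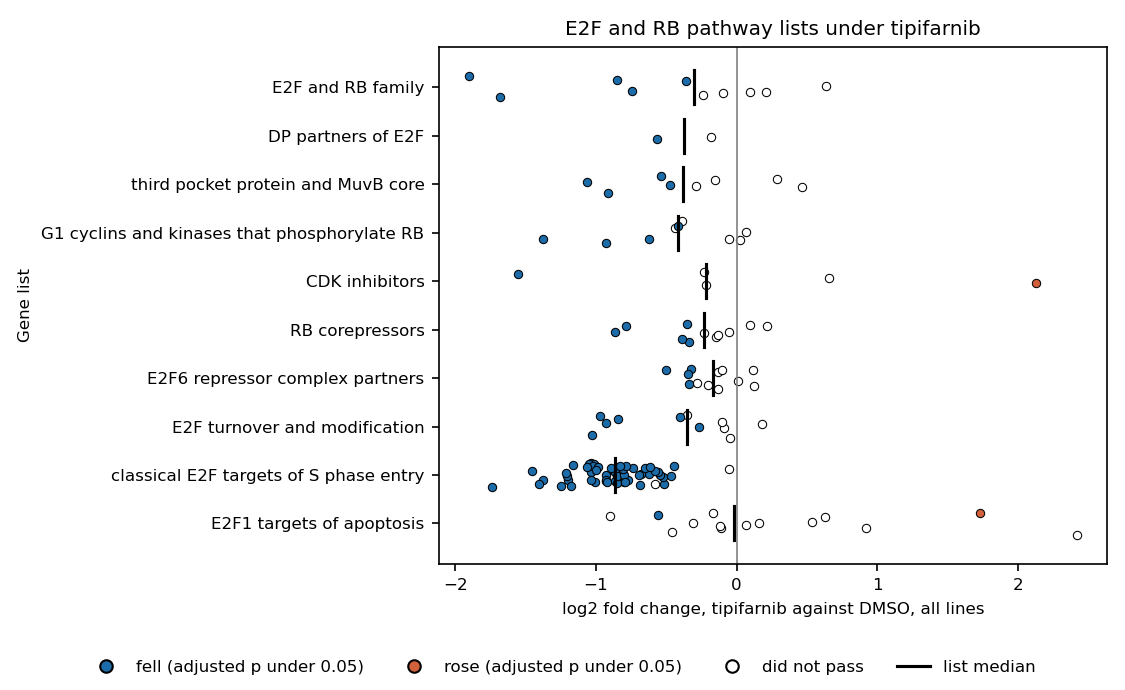
Log2 fold change over all lines, tipifarnib against DMSO, of each gene (points, spread vertically for legibility) in the family and in 9 pathway lists, filled blue where it fell, red where it rose and white where it did not pass, with black bars at list medians. The E2F targets lie left of 0 with a median of -0.86, and CDKN1A and BBC3 are the red points.

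With MYC, where 4.5% of all genes rose and 2.84% fell, 1 of the 53 E2F targets rose, the replication factor subunit RFC3 (0.41 ± 0.10, adjusted p = 0.0324), with CDT1 (0.39 ± 0.10), CDC25A (0.64 ± 0.18) and RFC4 (0.32 ± 0.09) next at adjusted p of 0.0524 to 0.067. CCND2, cyclin D2, rose (1.56 ± 0.30), from 28.1 to 71.9 CPM in MDA-MB-231 in DMSO. It had at most 1.90 CPM in A549 and 0 counts in SKOV3, so the fitted change rests on MDA-MB-231 and low A549 values. BBC3 rose again (0.67 ± 0.16), from 10.6 to 23.8 CPM in A549 in DMSO. Among the modifiers PRMT5 rose (0.44 ± 0.10) and FZR1 fell (-0.29 ± 0.07), and of RB corepressors SMARCA2 (-0.31 ± 0.08) and KDM5A (-0.27 ± 0.07) fell. No gene of the DP, MuvB, CDK inhibitor or E2F6 lists passed.

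After removing each line's mean, the members fell into a set that varied together over the 12 libraries and others that did not. Pearson r of log2 CPM was 0.913 for E2F1 with RBL1, 0.90 for E2F1 with E2F2, 0.894 for E2F8 with RBL1 and 0.798 for E2F8 with RB1. E2F7 was at -0.64 with E2F8 and 0.612 with E2F6, and E2F5 at -0.685 with RB1. The genes of most like pattern were ZNF367 (0.981) and CDC6 (0.977) for E2F1, ECHS1 (0.986) and MCM3 (0.974) for E2F2, TOP2A (0.985) and KIF20B (0.979) for E2F8, and SRP9 (0.989) and PSMD1 (0.987) for RBL1. For E2F7 they were ACAT2 (0.96), which makes acetoacetyl-CoA for sterol synthesis, and CLGN (0.949). For RB1 they were TWSG1 (0.983) and BMPR1A (0.981), for E2F3 ARFIP2 (0.973), for E2F4 CSK (0.949), for E2F5 ABHD14B (0.987) and for E2F6 SERGEF (0.915). These values describe libraries that share lines and treatments.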

How the data were processed

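Per the submitters' processing notes, reads were handled with TopHat2, HTSeq and DESeq2 on hg19, and versions and strand settings are not given in the sources used here. The authors deposited raw read counts per gene, with 12 columns, 57820 gene rows and 5 summary rows that held 17.5% to 19.9% of counts and were left out. Of the identifiers 51996 were matched to a symbol. Genes passing filterByExpr over the 4 groups (17096) were scaled with TMM and tested with the edgeR 4.0.16 quasi-likelihood test (R 4.3.3), Benjamini-Hochberg adjusted over all genes, threshold 0.05, in 14 comparisons. Comparisons over lines used line plus group (6 residual degrees of freedom), and those within or between lines used MYC and tipifarnib terms fitted per line (3 degrees of freedom), so the interaction serves as error there. The line was blocked, as it pairs the groups. After centring on groups, libraries of 1 line correlated with r of 0.829 to 0.922 (18 pairs) and those of other lines with -0.551 to -0.307 (36 pairs). Centring makes the lines' deviations cancel in each group, so the negative values follow from the positive ones and are not separate evidence. Standard errors are the fold change over the root of the F statistic, and log2 CPM uses a prior count of 2. Exon lengths are from GENCODE v29, another build than the counts. Members, lists and tests were chosen with earlier results of these data known. Named genes are the members, MYC, up to 4 genes of smallest p per list and the 3 most alike genes per member, of which the text gives some. One marker gene is not reported here. The fits were tested on simulated data. Alternatives were DESeq2 1.42.0, its size factors, limma-voom (limma 3.58.1), no low count filter, no replicate block, the line as the unit and each line left out.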

Additional observations from a re-analysis of the deposited data

Results flagged for a closer look

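The tipifarnib response of 3 members differed between the 3 lines in the test of the difference itself. For E2F7 the adjusted p was 0.0051, with both A549 pairs lower and all SKOV3 and MDA-MB-231 pairs higher in drug, and the difference passed in all 7 alternatives run (adjusted p up to 0.0279). For E2F2 and RBL1 the adjusted p was 0.0348 each, and both moved most in MDA-MB-231. In A549 the dose was 10 µM and in the other lines 20 µM, so for A549 dose and line cannot be told apart.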

How the results depend on the processing

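Comparisons over lines were run under 9 alternatives, those within lines under 6, tests of responses that differ between lines under 7 and level comparisons between lines under 5, and no called member changed sign. Of 920 values for members under an alternative, 857 kept call and sign, 33 lost the call, 13 gained it, and 17 changed sign while not called in either. For tipifarnib over both genotypes 5 members and 1929 genes passed. With no replicate block, and with the line as the unit, 0 members and 0 genes did (968 and 2184 genes at an unadjusted p under 0.05), DESeq2 gave 3032 genes, and with 1 line left out 1 to 4 members and 87 to 1174 genes passed. For MYC over both treatments 1 member and 1256 genes passed, against 2 members with DESeq2 (2405 genes) and with limma-voom, 0 members with no low count filter, no replicate block or the line as the unit (0 genes in the last 2, 559 and 2962 unadjusted), and 0 members and 10 to 148 genes with 1 line left out. The cause of these losses was not tested, though leaving out a line leaves 4 pairs and the line as the unit leaves 3 values.

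Within lines, members called for MYC in A549 were 3, and 1 to 3 with a line left out, and in SKOV3 0, and 1 with DESeq2 and 1 with limma-voom (RB1). Members whose tipifarnib response differed between lines were 3, and 1 to 4 with a line left out (4 without A549), and for MYC 0, and 1 with no low count filter (E2F2). Genes called for tipifarnib in A549 were 1373, against 2321 with no low count filter (1289 of them up) and 544 without MDA-MB-231. For MYC in SKOV3 they were 1553, against 2441 and 858 under the same settings, and for MYC in MDA-MB-231 281, against 873 with DESeq2, 1309 with no low count filter and 622 without A549. Genes differing between lines were 1314 for tipifarnib, 2217 with DESeq2, 3198 with no low count filter and 118 to 1764 with a line left out, and 524, 971, 1843 and 91 to 425 for MYC.

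Signs turned for members that passed in neither setting. With a line left out E2F4 and E2F7 ranged from -0.21 to 0.055 and from -0.044 to 1.29 for tipifarnib, and E2F1 and E2F2 from -0.20 to 0.030 and from -0.016 to 0.53 for MYC. Interaction terms then ranged from -0.11 to 0.36 for E2F1, -0.11 to 0.012 for E2F3, -0.16 to 0.090 for E2F5, -0.069 to 0.041 for E2F6 and -0.14 to 0.18 for E2F8. They were -0.045 for E2F5 and 0.033 for E2F8 with limma-voom, -0.058 for E2F5 with no replicate block and 0.036 for E2F8 with the line as the unit. The MYC effect on E2F7 in SKOV3 was 0.0063, against -0.0096 with DESeq2 size factors, -0.019 with DESeq2, -0.0058 with no low count filter, and -0.019 to 0.0087 with a line left out. E2F2 and E2F8, with as few as 65 and 71 counts in a library, are the members most limited by depth.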
